A study of Mus musculus with 4 samples.

Results

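Transcripts of 9 genes that mature oligodendrocytes use to build and hold myelin were measured in sorted naive microglia. The genes were Mbp, Mog, Mag, Mobp, Cnp, Cldn11, Ermn, Mal and Opalin, taken by gene symbol from the 56832 genes listed for each library. All 9 had reads in all 4 libraries. Together they took 0.0426% to 0.0947% of the reads assigned to genes. Microglia are the resident macrophages of the brain. The series compares graft-derived brain myeloid cells with naive microglia after transplantation of different blood-forming cell sources and CSF1R inhibition, and the graft-derived cells were not analysed here. The libraries came from brains of non-transplanted female C57BL/6 mice that had had no intervention, and their age is not given in the sources used here. Cells in the CD45 low to intermediate, CD11b-positive gate were sorted, and their RNA was amplified with a low-input kit. They are numbered replicates 1 to 4 of a single group. Whether they stem from different animals is not stated, and p-values therefore measure only the spread between these libraries, which may be technical.

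Myelin is the stacked membrane that oligodendrocytes wrap around axons in the central nervous system. It is made of lipid and of a small set of very abundant proteins. Mbp zips the inner faces of the membrane together, Mag and Mog are adhesion proteins of the inner and outer surfaces of the sheath, and Cldn11 seals its layers with tight junctions. Several of the messenger RNAs, Mbp and Mobp among them, are known to be carried out along the oligodendrocyte's processes and translated close to the myelin. Many of the genes are switched on by the transcription factors SOX10 and MYRF as precursors mature.

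Promoter windows were read for the genes whose levels moved furthest apart between libraries, to show what lies before their starts. RefSeq's promoter table on GRCm38.p6 held 10 windows for 8 of the 9 genes, with Mag represented by 3 starts, and Mbp was the gene without an entry. The sequence 250 bases before the start is printed in lower case, 5′ to 3′ on the gene's own strand, and capitals mark ACAAAG or its reverse complement CTTTGT, letters like those that SOX proteins bind. The windows are chr9:120149492-120149741 on the plus strand for Mobp, chr2:127656696-127656945 on the minus strand for Mal, chr3:31149670-31149919 on the plus strand for Cldn11 and chr19:41077114-41077363 on the minus strand for Opalin.
Mobp: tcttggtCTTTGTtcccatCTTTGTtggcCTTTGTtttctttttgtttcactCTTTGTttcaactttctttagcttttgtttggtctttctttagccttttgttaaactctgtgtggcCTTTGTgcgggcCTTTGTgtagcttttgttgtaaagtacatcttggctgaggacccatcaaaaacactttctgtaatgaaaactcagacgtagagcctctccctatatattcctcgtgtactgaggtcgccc
Mal: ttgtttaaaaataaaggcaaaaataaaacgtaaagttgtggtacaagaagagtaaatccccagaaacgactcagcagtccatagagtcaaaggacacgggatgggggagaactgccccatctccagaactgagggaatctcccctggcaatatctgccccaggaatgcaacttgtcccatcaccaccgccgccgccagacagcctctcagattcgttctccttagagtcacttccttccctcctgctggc
Cldn11: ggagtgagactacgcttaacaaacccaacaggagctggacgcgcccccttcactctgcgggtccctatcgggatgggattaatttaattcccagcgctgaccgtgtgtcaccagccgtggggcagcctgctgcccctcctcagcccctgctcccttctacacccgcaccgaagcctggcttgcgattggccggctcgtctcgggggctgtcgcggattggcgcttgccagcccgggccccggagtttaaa
Opalin: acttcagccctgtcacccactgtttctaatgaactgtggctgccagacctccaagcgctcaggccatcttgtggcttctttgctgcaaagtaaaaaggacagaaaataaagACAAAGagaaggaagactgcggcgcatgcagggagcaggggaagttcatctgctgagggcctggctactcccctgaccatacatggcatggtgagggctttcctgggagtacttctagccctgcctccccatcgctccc

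The Mobp window held 6 such matches, the nearest 120 bases before the start, and its GC content was 40.8%. Opalin held 1 match, 139 bases before the start, while Mal and Cldn11 held 0. Over both strands, 5 of the 10 windows had a match, those of Mobp, Cnp and Opalin and 2 of the Mag starts, against 16.5% of all 32851 windows of the same length. Those Mag windows overlap and hold the same single match, so the matches belong to 4 of the 8 genes. The shorter SOX-type letters ACAAT were found in 1 of the 10 windows, that of Ermn, against 27.7% of all windows. The letters TATAAA were found in 0 of the 10 windows, against 12.4% of all. Both SOX-type motifs share the letters ACAA. Mobp and Mal, both lowest in replicate 4 as described next, had 6 matches and 0. Whether matches go with levels between libraries was not tested. A match describes letters in a window and is not a binding site.

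Depth was close between libraries, at 20606776, 22576720, 23292655 and 20360121 reads assigned to genes in replicates 1 to 4. The number of genes with a read was less even. Replicates 2 and 3 had 18978 and 18431 genes with a read, against 14850 in replicate 1 and 13944 in replicate 4. Levels are given as CPM, the reads of a gene scaled to all reads assigned to genes in its library. A count of 0 allows up to 3 reads, or 0.129 to 0.147 CPM, and all 9 genes stood above 1 CPM in every library. Intervals are exact 95% Poisson intervals of the counts and cover counting error only. All 14 microglia markers examined were above 1 CPM in every library, with sums of 71467, 43248, 41127 and 68955 CPM. Reaching 1 CPM does not mark a cell type by itself. In every library 9 of 10 neutrophil, 7 of 8 border macrophage and 1 of 11 neuron markers also did so. The microglia sums were far larger than the highest neutrophil sum, 2442 CPM in replicate 4, or border macrophage sum, 862 CPM in replicate 3. In sorted bulk samples, fewer cells of a type and less RNA per cell cannot be told apart.

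The genes of the proteins that pack the compact membrane were among those that differed most between libraries. Mbp, which joins the inner faces of the membrane, had 184, 317, 251 and 29.3 CPM in replicates 1 to 4, from 3782, 7166, 5843 and 596 reads. Replicate 4 stood far below the other libraries, with a counting interval of 27.0 to 31.7 CPM. Mobp, a smaller basic protein of the same compartment, had 21.6, 68.2, 51.8 and 5.84 CPM. It was lowest in the same library as Mbp and highest in the same library, replicate 2. The highest level was 10.8 times the lowest for Mbp and 11.7 times for Mobp. An annotated ribosomal protein pseudogene, Rpl21-ps8, lies within Mbp on the opposite strand without sharing exon bases, and had 37, 92, 65 and 83 reads. Across the 4 libraries Mbp averaged 195 ± 123 CPM and Mobp 36.9 ± 28.3 CPM (SD, n = 4 each). Within a library the log2 ratio of Mbp over Mobp reads was 3.09, 2.22, 2.27 and 2.32, so replicate 1 had relatively less Mobp while replicate 4, where both were scarce, kept the ratio seen in replicates 2 and 3.

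The immunoglobulin-family adhesion genes were steadier. Mog, on the outermost surface of the sheath, had 17.6, 46.0, 37.3 and 33.4 CPM. Mag, on the innermost layer facing the axon, had 29.6, 102, 65.8 and 76.8 CPM. Both were lowest in replicate 1 and highest in replicate 2, and replicate 4, the low library for Mbp, held middle levels of both. Mog averaged 33.6 ± 11.9 CPM and Mag 68.6 ± 30.2 CPM (SD, n = 4 each). The log2 ratio of Mog over Mag reads was -0.75, -1.15, -0.82 and -1.20, with an SD of 0.23. That was the steadiest of the 36 pairs that the 9 genes form.

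Cnp and Ermn had the smallest fold between the highest and the lowest library. Cnp, an enzyme that keeps cytoplasmic channels of the sheath open, had 124, 222, 184 and 221 CPM, from 2561, 5009, 4287 and 4495 reads. Ermn, a cytoskeletal protein of late oligodendrocytes, had 31.6, 55.1, 55.7 and 42.5 CPM. Both were lowest in replicate 1, and the highest library had 1.79 times the lowest for Cnp and 1.76 times for Ermn. Cnp averaged 188 ± 45.8 CPM and Ermn 46.2 ± 11.5 CPM (SD, n = 4 each). Annotated exons of Cnp share bases with Dnajc7, a co-chaperone gene on the opposite strand, which had 3661, 4376, 5385 and 3736 reads. The strand setting of the counting is not given, so reads of the shared stretch cannot be told apart. Ermn overlaps Galnt5, which had 0 reads in every library.

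The genes with 4 membrane-spanning segments went apart from each other. Cldn11, the tight-junction claudin of central myelin, had 1.70, 54.9, 50.6 and 41.6 CPM, from 35, 1240, 1179 and 846 reads. Replicate 1 was the lone low library, with a counting interval of 1.18 to 2.36 CPM, and the highest library had 32.3 times as much. Mal, a proteolipid that sorts cargo to the myelin membrane, had 9.22, 65.1, 73.5 and 6.68 CPM, from 190, 1470, 1712 and 136 reads. Replicates 1 and 4 were both low for Mal, whereas replicate 4 was not low for Cldn11. The log2 ratio of Cldn11 over Mal reads was -2.42 in replicate 1, -0.25 in replicate 2, -0.54 in replicate 3 and 2.63 in replicate 4. Cldn11 averaged 37.2 ± 24.3 CPM and Mal 38.6 ± 35.6 CPM (SD, n = 4 each). Mal is also known from T cells. The 11 T and NK cell markers summed to 26.0, 29.3, 33.4 and 0.295 CPM, with Il7r, the interleukin-7 receptor, highest in mean CPM, at 26.0, 21.2, 23.3 and 0.196 CPM. Cd3d, Cd3e and Cd3g stayed at or below 1.37 CPM in every library and were at 0 in replicate 1, and the part of such cells in the Mal level was not tested.

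Opalin, a glycoprotein of the paranodal loops that is made by mature oligodendrocytes, went the opposite way to Mbp in replicate 4. It had 6.84, 16.3, 20.1 and 34.0 CPM, from 141, 369, 468 and 692 reads. Replicate 4 was its highest library, with a counting interval of 31.5 to 36.6 CPM, and replicate 1 its lowest. Opalin averaged 19.3 ± 11.3 CPM (SD, n = 4), and its highest library had 4.97 times the lowest.

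**Figure D1:**
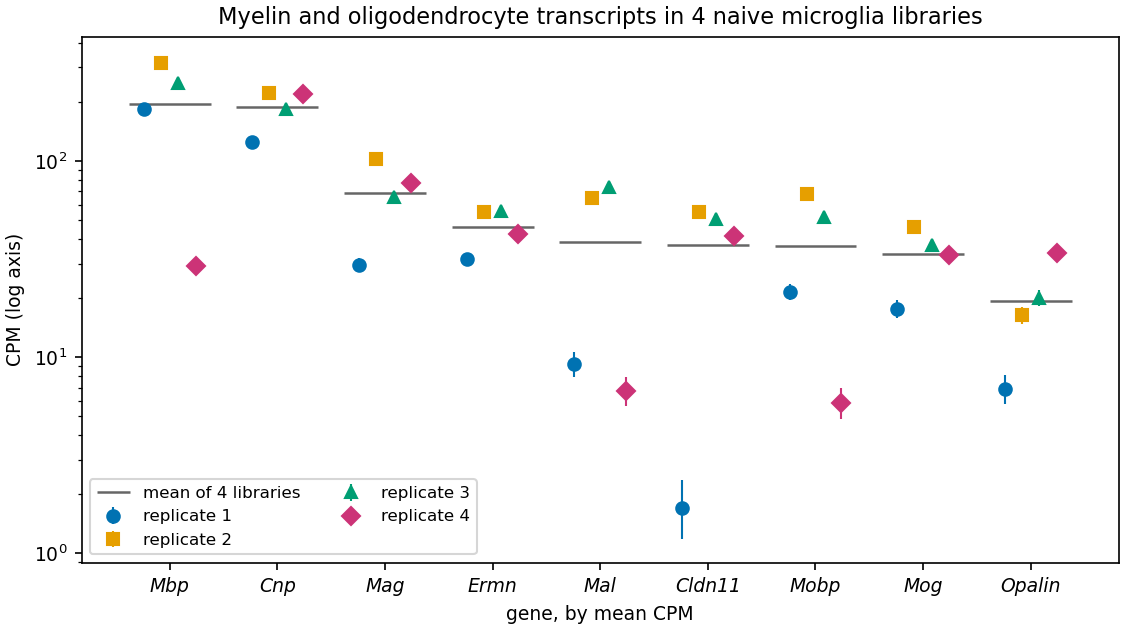
CPM of the 9 genes on a log axis, with 1 marker per library, 95% Poisson intervals of the counts as vertical bars and the mean of the 4 libraries as a horizontal line. Replicate 4 is lowest for Mbp, Mobp and Mal and replicate 1 for the other 6 genes, furthest for Cldn11 at 1.70 CPM.

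Read by library rather than by gene, replicate 1 was lowest for 6 of the 9 genes, namely Mog, Mag, Cnp, Cldn11, Ermn and Opalin, and replicate 4 for the remaining 3. Among all 9075 genes tested, replicate 1 was lowest for 25.5% and replicate 4 for 30.7%. Replicate 2 was highest for 6 of the 9 genes, against 18.9% of all tested genes. Replicates 2 and 3 were close, with a median absolute log2 difference of 0.29 over the 9 genes and 0.28 over all tested genes. Replicate 1 was further from the other libraries for the 9 genes than for all tested genes, with medians of 1.36 and 0.54 against replicate 2, 1.14 and 0.52 against replicate 3, and 1.36 and 0.71 against replicate 4. Replicate 4 was nearer to replicates 2 and 3 in the median of the 9 genes, at 0.46 and 0.38, than for all tested genes, at 0.79 and 0.75. Those medians cover a split. Replicate 2 minus replicate 4 was 3.42, 3.44 and 3.19 log2 units for Mbp, Mobp and Mal, and -1.03 for Opalin. Replicate 3 minus replicate 4 was 3.08, 3.04 and 3.37 for the same genes, and -0.74 for Opalin. Mog, Mag, Cnp, Cldn11 and Ermn differed by at most 0.46 in both comparisons. The 9 genes summed to 426, 947, 790 and 491 CPM, or 663 ± 247 CPM (SD, n = 4). Without Mbp the sums were 242, 630, 539 and 462 CPM, and without Mbp and Cnp they were 118, 408, 355 and 241 CPM. In both, replicate 1 was lowest and replicate 4 came next.

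The make-up of the myelin reads differed as well as their amount. Mbp gave 43.1%, 33.5% and 31.8% of the reads of the 9 genes in replicates 1 to 3 and 5.96% in replicate 4. Cnp gave 29.2%, 23.4%, 23.3% and 45.0%. Opalin gave 1.61%, 1.73%, 2.54% and 6.92%, and Cldn11 gave 0.399%, 5.80%, 6.41% and 8.47%. Replicates 2 and 3 had similar shares, while replicates 1 and 4 each had a mixture of their own. In replicate 1 Cldn11 took the smallest share of the 9 genes, and in replicate 4 Mobp did, at 1.19%.

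**Figure D2:**
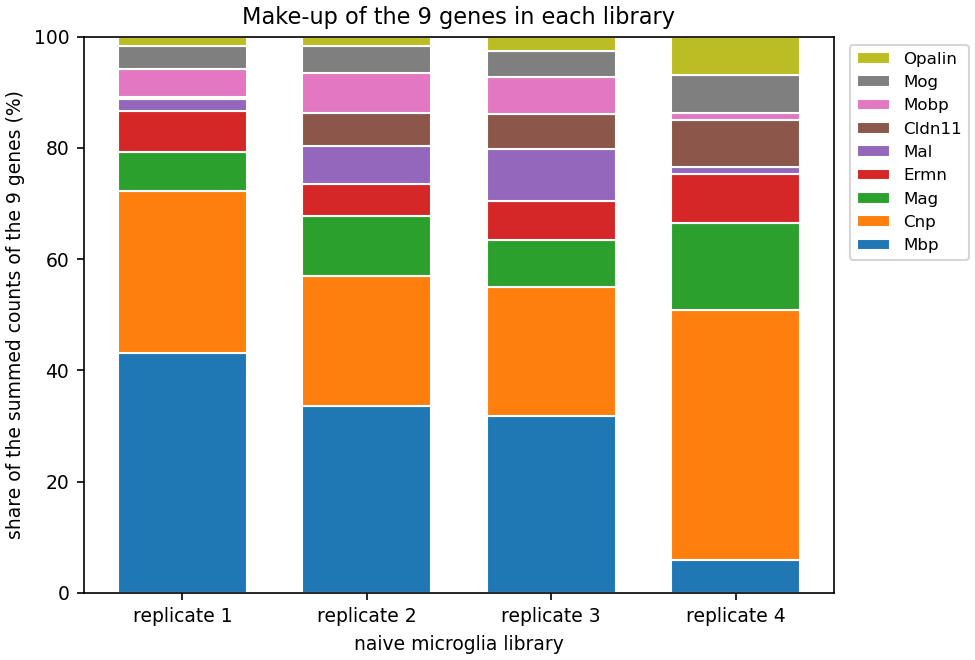
Share of each gene, in percent, in the summed reads of the 9 genes of each library, as stacked bars from 0 to 100%. The Mbp band is 43.1% in replicate 1 and 5.96% in replicate 4, and the Cnp band is 45.0% in replicate 4.

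Each gene was also set against Mbp of the same library as reads per 100 Mbp reads, a ratio not corrected for length that is read here across libraries. Cnp had 67.7, 69.9 and 73.4 in replicates 1 to 3 and 754 in replicate 4. Opalin had 3.73, 5.15, 8.01 and 116, and Mag had 16.1, 32.2, 26.2 and 262. The ratio in replicate 4 was above that of every other library for 6 genes. For Mobp, at 11.8, 21.5, 20.7 and 19.97, and Mal, at 5.02, 20.5, 29.3 and 22.8, replicate 4 lay within the range of the other libraries. Across all 36 pairs, 20 had log2 ratios of both signs among the 4 libraries, and the SD of the ratio had a median of 1.55. The SD was under 0.5 for 7 pairs, which were the 6 pairs formed by Mog, Mag, Cnp and Ermn and the pair of Mbp with Mobp. The least steady pair was Mbp with Cldn11, with an SD of 2.98.

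**Figure D3:**
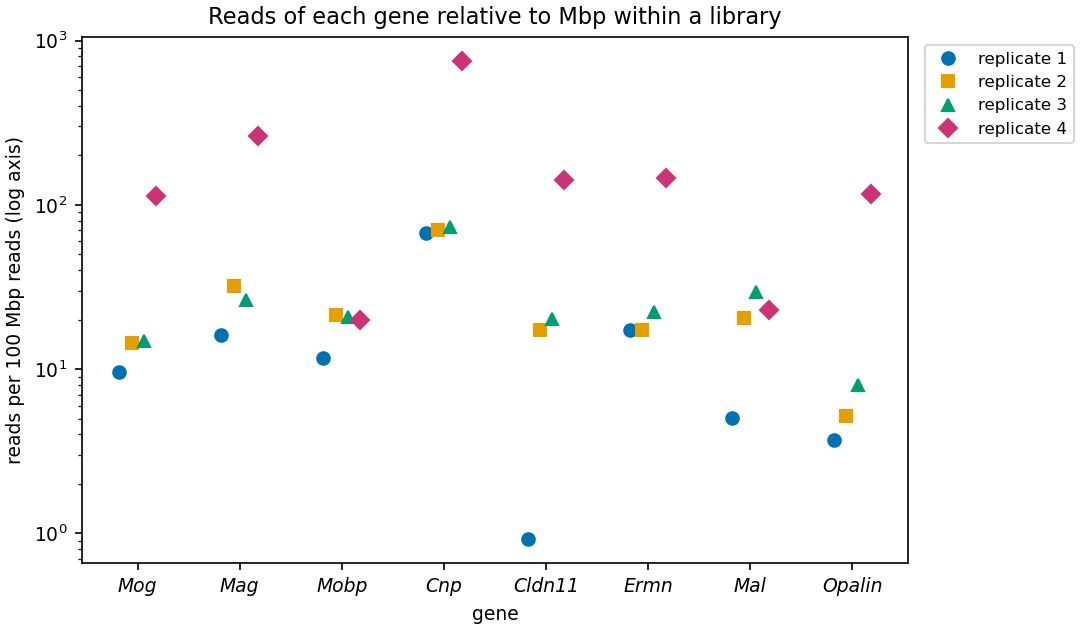
Reads of each of the other 8 genes per 100 Mbp reads of the same library, on a log axis, with 1 marker per library. Replicate 4 lies above the other libraries for 6 genes, at 754 for Cnp, and within their range for Mobp, at 19.97, and Mal, at 22.8.

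Levels of different genes were compared per kb of exon, using the union of annotated exons. Cnp was first in every library, at 34.2, 61.0, 50.6 and 60.7 CPM per kb. Mbp had 21.7, 37.5, 29.6 and 3.46 CPM per kb. With the longest annotated transcript as length, Cnp was still above Mbp, by 1.12, 1.15, 1.21 and 12.5 times. In mean log2 CPM per kb the order was Cnp 5.65, Mog 4.22, Mbp 4.09, Mag 3.94, Ermn 3.63, Cldn11 3.50, Mal 3.07, Opalin 2.499 and Mobp 1.92. Of the 8 neighbouring pairs, only Cnp over Mog stood beyond its spread between libraries, by 1.43 ± 0.28 log2 units per kb and in 4 of 4 libraries. Mog over Mbp, at 0.13 ± 1.61, was positive in 1 library, and Mag over Ermn, at 0.31 ± 0.48, in 3 (SD, n = 4). The place of Mbp in the order rests on replicate 4 and on its length. Without replicate 4, Mog over Mbp was -0.66 log2 units per kb of union exon. The 16 annotated transcripts of Mbp span 8469 exon bases in union and 4797 in the longest, and with the longest transcript Mog over Mbp was -0.69. The long forms of the locus, the Golli transcripts, are known from immune cells as well as from oligodendrocytes, and counts per gene do not separate them.

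The spread of each gene between libraries was tested against that of genes at a like level. None of the 9 genes passed at an adjusted p under 0.05 with edgeR's quasi-likelihood dispersion, and the share called among all 9075 genes tested was 0%. At an unadjusted p under 0.05 the count was 3 of 9, against 395 of 9075, or 4.35%, of all tested genes. Among the 5374 other genes in the mean CPM range of the 9, it was 297, or 5.53%. The 3 of the 9 genes were Mbp, with a dispersion 13.5 times the trend and an unadjusted edgeR p of 0.0125, Cldn11 at 8.25 times with 0.0309, and Mal at 8.17 times with 0.0315. Their adjusted p in edgeR was 0.944. Mobp stood at 5.59 times the trend with an edgeR p of 0.0599, and Mag at 2.34 times with 0.208. Opalin, Cnp, Mog and Ermn lay between 0.575 and 1.35 times the trend, with edgeR p from 0.373 to 0.66. The median of the 9 genes was 2.34 times the trend, against 0.943 for all tested genes. DESeq2's dispersion outliers held 0 of the 9 genes and 0 of the 9075. Such spread was not confined to the myelin genes. Among tested genes of the lists described below, 11 of 11 immediate early genes had an unadjusted edgeR p under 0.05. So did 6 of 10 neutrophil, 2 of 7 border macrophage, 1 of 8 astrocyte and 1 of 5 endothelial markers. The counts were 0 of 14 for microglia, 0 of 2 for choroid plexus and ependymal and 0 of 1 for neuron markers.

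A further 65 genes of oligodendrocytes and of myelin were followed in 6 lists. Of these, 25 passed the filter on low counts and could be tested. Among the 25, 4 had an unadjusted edgeR p under 0.05, against 4.35% of all 9075 tested genes. An adjusted p under 0.05 was found for 0, as for 0% of all tested genes. Genes such as Ugt8a, with 1, 331, 623 and 0 reads, and Lpar1, with 0, 496, 355 and 0 reads, did not pass the filter. The counts of 4 and 0 therefore leave out such genes, whose reads differed widely between libraries. Reads were present for 37, 57, 51 and 35 of the 65 in replicates 1 to 4. Leaving out the 7 with no read in any library, 58 remained, of which 63.8%, 98.3%, 87.9% and 60.3% had a read in replicates 1 to 4. Over all genes with a read in any library, the shares were 68.5%, 87.5%, 85.0% and 64.3%.

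Of the 19 other genes of the myelin membrane, 9 reached 1 CPM in every library. Plekhb1, a membrane-binding protein, had 1.94, 50.6, 58.8 and 3.09 CPM and an unadjusted edgeR p of 0.0166. Like Mal, it was low in replicates 1 and 4 and high in replicates 2 and 3. Tppp, which binds tubulin, was close across libraries at 63.2, 78.4, 73.0 and 121 CPM. The axon-contact gene Cntn2 had 0, 9.12, 7.51 and 0 CPM, so it was at 0 in replicates 1 and 4.

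Among 7 genes of myelin lipid synthesis, the galactolipid enzymes had most of their reads in replicates 2 and 3. Cers2, a ceramide synthase that many cell types use, had 236, 238, 185 and 255 CPM. Ugt8a, which makes galactosylceramide, had 0.0485, 14.7, 26.7 and 0 CPM. Fa2h, which hydroxylates the fatty acids of myelin lipids, had 9.80, 30.7, 31.6 and 0.0491 CPM. Aspa, which frees acetate for lipid synthesis, had 0, 16.2, 24.7 and 0.295 CPM. Of the 7 genes of this list, Cers2 alone reached 1 CPM in every library.

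Regulators of the lineage were sparse, above all in replicates 1 and 4. Of 10 transcription factors, 4, 10, 9 and 2 had a read in replicates 1 to 4. Sox10 had 0, 6.38, 2.19 and 0 CPM, Olig2 had 0, 4.30, 2.02 and 0 CPM, and Myrf had 0, 3.45, 4.16 and 0 CPM. All 3 were thus without a read in replicates 1 and 4 and had reads in replicates 2 and 3. Those 2 libraries also had reads for more genes in general. Over all genes with a read in any library, the shares were 68.5%, 87.5%, 85.0% and 64.3% in replicates 1 to 4. Olig1 had 3.98, 12.8, 4.55 and 0.0491 CPM, and Zfp536 had 2.96, 10.1, 5.41 and 0 CPM. Tcf7l2, a Wnt-pathway factor that other cells also express, had 125, 116, 118 and 25.1 CPM. The 9 precursor markers summed to 0.0485, 12.4, 5.11 and 0.147 CPM, led by Ptprz1, a surface phosphatase, with 8.02 CPM in replicate 2. Pdgfra, the growth factor receptor of precursors, had 3.85 CPM in replicate 2 and 0 in the other libraries, and Cspg4, a surface proteoglycan, had 0.945 CPM in replicate 3 and 0 in the others.

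Accessory genes of mature oligodendrocytes included several that brain macrophages or other cells also use. Trf, which encodes transferrin, led the 15 with 3226, 3283, 3836 and 1695 CPM, followed by Evi2a and Gatm. Evi2a had 475, 398, 468 and 588 CPM, and Gatm, an enzyme of creatine synthesis, had 286, 395, 409 and 365 CPM. Apod, a lipid carrier, had 14.2, 88.9, 104 and 36.6 CPM and an unadjusted edgeR p of 0.0484. Stmn4, a tubulin regulator, had 17.8, 40.1, 44.3 and 0.884 CPM and an unadjusted edgeR p of 0.0312. Of the peripheral myelin genes, Prx, Pmp2 and Ncmap had 0 reads in all 4 libraries. Pmp22, which is widely expressed, had 527, 501, 486 and 637 CPM.

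**Figure D4:**
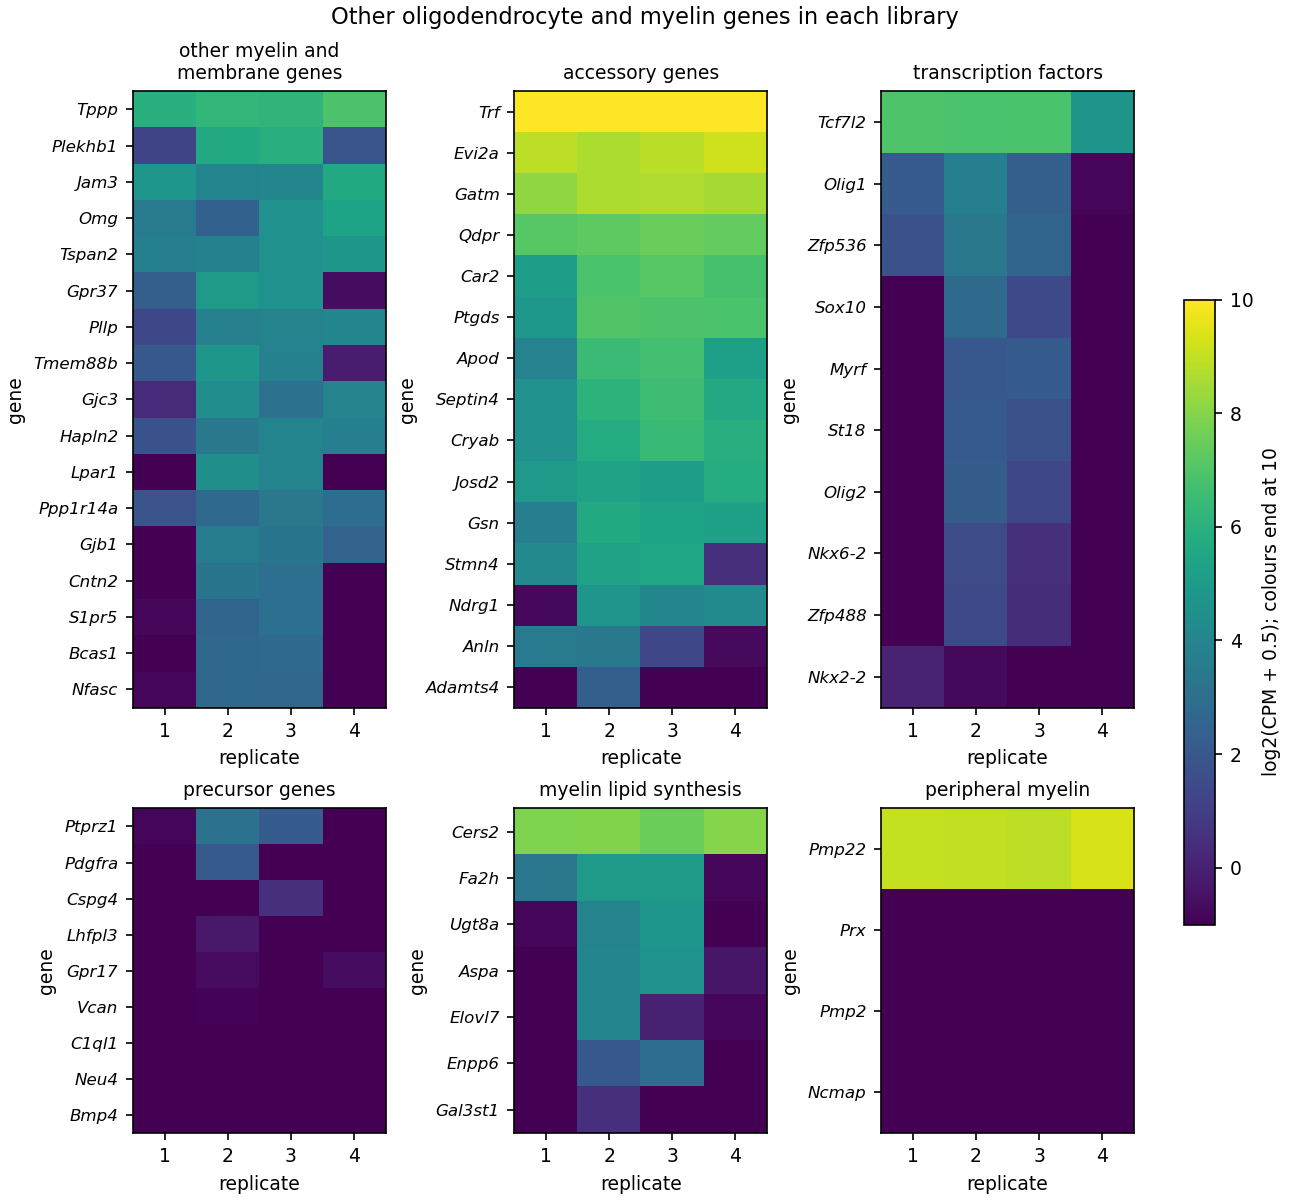
Level of 62 other oligodendrocyte and myelin genes in each library, as colour for log2(CPM + 0.5) ending at 10, in 1 panel per list with libraries as columns. Plekhb1, Ugt8a and Fa2h are lighter in replicates 2 and 3, while Cers2 and Tppp differ less across libraries.

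Markers of other cell types moved between the libraries too. The 12 astrocyte markers summed to 353, 482, 550 and 330 CPM, with Slc1a3, a glutamate transporter, highest in mean CPM, at 222, 272, 276 and 57.5 CPM. The 11 endothelial markers summed to 98.1, 203, 178 and 123 CPM, with Itm2a highest in mean CPM, at 13.8, 44.4, 59.9 and 40.1 CPM. Both sums, like that of the myelin genes, were higher in replicates 2 and 3, though not every marker followed its sum. Of the 12 astrocyte markers, 4 were highest in replicate 2, 3 in replicate 3 and 5 in replicate 4. Of the 11 endothelial markers, 1, 5, 3 and 2 were highest in replicates 1 to 4. The 11 neuron markers summed to 12.5, 20.8, 39.2 and 21.4 CPM. Only Camk2a, a synaptic kinase, reached 1 CPM in every library, and Rbfox3 and Syt1 were at 0 in replicate 1. The 8 markers of border macrophages summed to 294, 794, 862 and 441 CPM, with the mannose receptor Mrc1 highest in mean CPM, at 68.9, 213, 191 and 106 CPM. Their sum too was higher in replicates 2 and 3. Of the 8, 7 were lowest in replicate 1, against 25.5% of all tested genes. The 8 choroid plexus and ependymal markers summed to 453, 933, 939 and 2074 CPM, almost all of it the transthyretin gene Ttr. The 10 neutrophil markers went the other way, at 1513, 290, 279 and 2442 CPM, with S100a8 highest in mean CPM. The 11 immediate early genes, which respond within minutes to stimulation and to handling, summed to 4712, 56112, 49112 and 5086 CPM, with Dusp1, a phosphatase, highest in mean CPM, at 540, 7672, 10128 and 862 CPM. The part of any of these cells, of handling or of the lower number of genes detected in replicates 1 and 4 in the myelin levels was not tested.

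**Figure D5:**
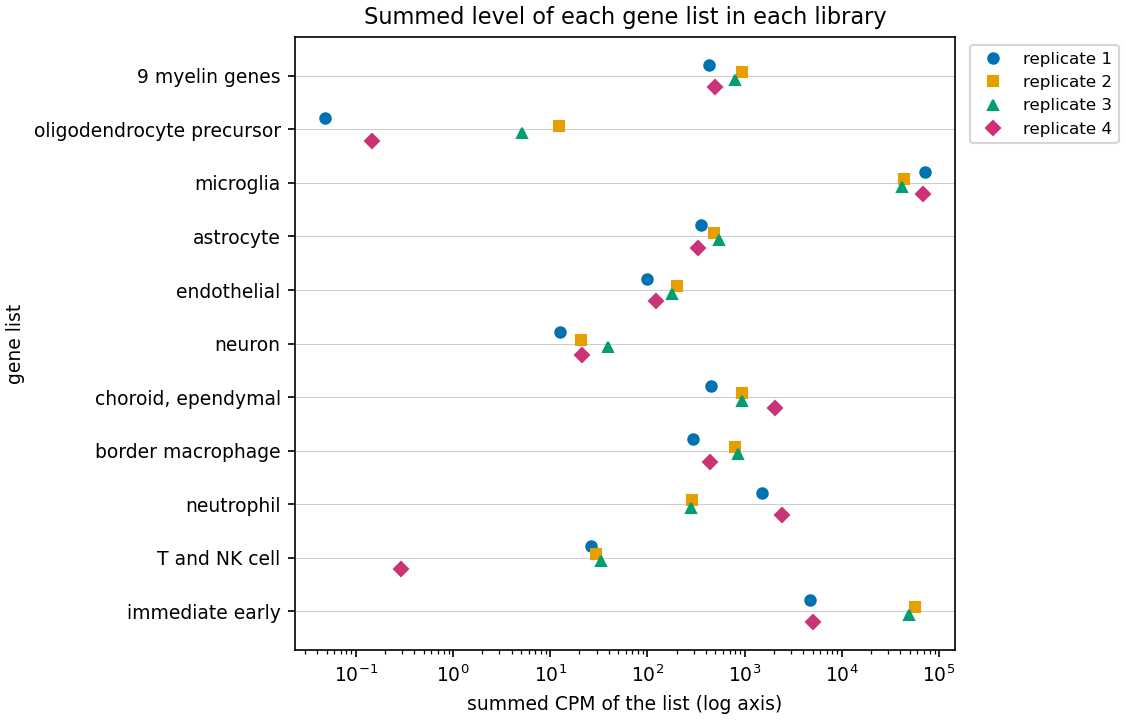
Summed CPM of each gene list on a log axis, with 1 marker per library. The 9 myelin genes, at 426 to 947 CPM, lie far below the microglia markers, at 41127 to 71467 CPM, and the immediate early genes split replicates 2 and 3 from replicates 1 and 4.

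Genes whose pattern was most like that of Mbp were sought among 8166 genes with a mean of at least 10 CPM, by the root mean square difference of centred log2 levels over the 4 libraries. The closest were Arl8a at 0.0754, Mbtps1 at 0.105, Ccp110 at 0.107, Hspa4 at 0.111 and Cntrl at 0.115. Arl8a, a lysosome-associated GTPase, had 9.37, 19.1, 13.5 and 1.23 CPM. Hspa4, a chaperone, had 96.6, 142, 122 and 12.4 CPM. For the summed 9 genes the closest were Dglucy at 0.0466, 2010315B03Rik at 0.0516, Fam50a at 0.0560, Npm1 at 0.0612 and Ldlrad4 at 0.0638. None of these 10 was on a list of myelin or oligodendrocyte genes. The search left out the 9 genes, and the 65 genes of the other lists were few beside the 8166, so nothing is read from that. The likeness rests on 4 libraries that all genes share and is a description.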

How the data were processed

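The authors deposited raw counts, 1 table per library with a row per gene symbol. Reads were processed with HTSeq 0.11.2, STAR 2.7.10a and SAMtools 1.16.1 on GRCm39 (mm39), per the submitters' processing notes. How strand was treated, and with which annotation, is not given. The 5 closing rows of each table, which hold 19.9% to 22.7% of the listed reads and name no gene, were left out. CPM used the remaining totals. Symbols gave exon lengths from GENCODE on GRCm38 for 89.1% of genes, holding 98.3% of the counts, and promoters came from RefSeq on GRCm38.p6. Neither is the authors' build, so no coordinates in the counts' build are given.

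Spread between libraries was tested with edgeR 4.0.16 in R 4.3.3, on TMM-scaled counts kept by filterByExpr (minimum count 10). The dispersion of an intercept-only quasi-likelihood fit was set against the trend by an upper-tail F test, with Benjamini-Hochberg adjustment over 9075 genes. DESeq2 1.42.0 gave an alternative. The other alternatives were another scaling, no filter, other lengths, another pseudocount and leaving out each library. Tables and plots were made in Python 3.11.15 with matplotlib 3.10.9, pandas 2.3.3, scipy 1.17.1 and numpy 2.4.6. With 1 group, no comparison between conditions was made.

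The 9 genes and all lists were chosen with earlier results of these data known. Named are the 9 genes, oligodendrocyte list genes including the 3 highest per list and those past the test, the highest gene of each other list, genes overlapping the 9, and the 5 genes most like Mbp and most like the sum. Some genes these rules would name are not reported here. Markers at 0, namely Cd3d, Cd3e, Cd3g, Rbfox3 and Syt1, were named after their values were seen.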

Additional observations from a re-analysis of the deposited data

Results flagged for a closer look

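For each of the 9 genes the CPM, the log2 CPM and the share of the summed reads were examined, with the summed CPM, all 36 pair ratios and the sums of 15 gene lists, which made 79 sets of 4 library values. In 11 of them 1 library stood apart from the other libraries by Dixon's gap criterion at 95%, and chance alone gives about 1 in 20. The log2 CPM of Cldn11 was 0.76 in replicate 1, the lowest. The other 10 were log2 ratios of reads between a pair of genes, 5 set apart by replicate 1 and 5 by replicate 4.

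Replicate 1 gave the highest ratio of Mog over Cldn11 at 3.36, of Mag over Cldn11 at 4.10 and of Cnp over Cldn11 at 6.17. It gave the lowest ratio of Cldn11 over Ermn at -4.20 and of Mobp over Mbp at -3.09. Replicate 4 gave the highest ratio of Cnp over Mbp at 2.91, of Ermn over Mbp at 0.54, of Mog over Mobp at 2.51 and of Mag over Mobp at 3.71. It gave the lowest ratio of Mobp over Opalin at -2.53. The ratios share genes and are not independent. They involve the genes that were lowest by far in those libraries, Cldn11 in replicate 1 and Mbp and Mobp in replicate 4, apart from Mobp over Mbp in replicate 1.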

How the results depend on the processing

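Of 167 values recomputed under the alternatives, 155 kept their direction and their side of the threshold or moved by less than the spread between libraries, and none past a threshold changed sign. Among the ratios of neighbours in the order per kb that lay within their spread, 11 values over 5 of the 8 pairs changed sign. With no length correction Mog over Mbp moved to -2.18, against 0.13 per kb, and with the longest transcript Opalin over Mobp was -0.40, against 0.58. All 54 recomputed mean levels of single genes were among the 155. None of the 9 genes had an adjusted p under 0.05 under any alternative run. The count at an unadjusted edgeR p under 0.05, 3 of 9, was 1 with no filter on low counts and 2 to 3 on leaving out each library. It was 0 with replicates 2 and 3 alone and 2 with replicates 1 and 4 alone. Both of those sets of libraries were chosen after seeing the data. Of the other oligodendrocyte genes, 1 had an adjusted p under 0.05 with replicates 2 and 3 alone, Elovl7, an enzyme that lengthens fatty acids, at an edgeR adjusted p of 0.00252 with 15.9 CPM in replicate 2 and 0.515 CPM in replicate 3, among 31 of 13583 genes called. Their unadjusted count of 4 was 3 to 8 on leaving out each library, with 8 without replicate 4. The genes that pass the filter change with the libraries kept. For the unadjusted counts of these runs the share over all genes tested is not given, so nothing is read from their changes. Neighbouring pairs beyond their spread in the order per kb numbered 1, and 2 with the longest transcript, 2 with no length correction and 1 to 3 on leaving out each library, with 3 without replicate 1 and 3 without replicate 4. The causes were not tested. The summed level was 569 to 743 CPM on leaving out each library, 672 CPM with TMM and 660 CPM with DESeq2 scaling. TMM shifted the median of all genes in replicate 4 by -0.11 on the log2 scale. The mean Mbp share was 23.7% to 36.1% on leaving out each library and 14.2% per kb. No paired analysis was possible because there is 1 group. The fewest reads behind a value of the 9 genes were the 35 of Cldn11 in replicate 1, with a counting interval of 1.18 to 2.36 CPM.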
